A study of Mus musculus with 15 samples.

Results

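The structural extracellular matrix genes of mouse cumulus cells were followed over 3 stages of oocyte competence. Members were the genes of the deposited table whose symbol is that of a collagen, laminin, lysyl oxidase, fibulin or fibrillin chain, together with fibronectin (Fn1), the nidogens (Nid1, Nid2), perlecan (Hspg2), Sparc, decorin (Dcn), lumican (Lum), biglycan (Bgn), osteoglycin (Ogn), matrix Gla protein (Mgp), elastin and the fibulin-like Efemp1 and Efemp2. The rule used names only and no measured difference between stages. It found 76 probes for 58 genes, among 15059 named genes of that table, and each gene was read by its probe with the highest mean over the 15 arrays. Among genes of the same families on the array named through RefSeq accessions, 17 of 77 had no probe in the table, among them elastin, Col2a1, Col15a1, Col4a3, Col8a1, Lamb3 and Loxl4. They were well above background on at most 3 of the 15 arrays and are not described further. Lamb1, Col26a1 and Col6a4 were listed in the table under older symbols only, so the rule did not take them.

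Cumulus cells are the somatic cells that enclose the oocyte in the antral follicle. All mice were of the B6CBAF1/J strain. NC1 cells surrounded prophase I oocytes of 3-week-old juveniles, and the authors class these oocytes as developmentally incompetent or poorly competent. C1 cells surrounded developmentally competent prophase I oocytes of 8-week-old adults. C2 cells came from expanded complexes with competent metaphase II oocytes, collected in the oviduct of 8-week-old adults that had been given pmsg and then hCG. NC1 and C1 complexes were punctured out of large follicles of mice for which no hormone is named, and their cells were freed by pipetting, whereas C2 cells were dispersed with hyaluronidase. Each stage had 5 arrays, and each array held the cells of a small group of mice. Age between NC1 and C1 cannot be told apart from stage, and between C1 and C2 the hormones, the site the complexes came from and the enzyme likewise cannot be told apart from it. The tissue label of every array names ovarian follicles, whereas the protocol describes cumulus cells separated from the oocytes.

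Extracellular matrix genes fall into classes with different places in a tissue. Fibrillar collagens (types I, III, V, XI) build the fibres of connective tissue, such as the theca around the follicle, and are coated by fibril-associated (FACIT) collagens and small leucine-rich proteoglycans. Basement membranes are sheets of type IV collagen and laminin joined by nidogen and perlecan, and the follicle is bounded by such a sheet on which the outer granulosa cells rest. Lysyl oxidases cross-link collagen and elastin, and fibrillins and fibulins form the scaffold of elastic fibres. Cumulus cells lie inside the follicle away from the theca, and before ovulation they embed themselves in a hyaluronan-rich matrix.

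The labelled cell type was checked with marker lists. All 9 granulosa and cumulus markers, among them Amh, Fshr, Foxl2 and Inha, were well above background on all 15 arrays, and their summed level was 185 to 244 times the array median at NC1, 193 to 234 at C1 and 46.4 to 56.5 at C2. The 6 markers of the expanded cumulus summed to 0.225 to 0.321 at NC1 and 19.4 to 33.7 at C2. At C1 they summed to 0.195 to 0.581 on 4 arrays and to 11.2 on C1 replicate 4, which therefore stands apart from the other C1 arrays. Theca, stroma and smooth muscle markers, which bear most directly on collagens, summed to 9.48 to 25.2 at NC1 (median 10.4), 6.39 to 9.63 at C1 (median 8.21) and 1.45 to 1.65 at C2. Of these 13 markers, 11 were seen on all NC1 arrays and 4 on all C2 arrays. Des, Myh11, Pdgfra, Rgs5 and Tcf21 were seen on no C2 array, although Des and Rgs5 were seen on no NC1 array either. The highest NC1 value, 25.2, was that of NC1 replicate 1, followed by 14.5 in NC1 replicate 2.

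Probe values are given as log2 of the background-subtracted intensity over the array's median, so that 0 is the level of the median valid probe and 1 unit is a doubling. They order the arrays for a given gene and do not rank genes against each other. A probe was tested when it was well above background on at least 4 of the 5 arrays of every stage. Of the 58 genes, 34 met this and 24 did not, and 15 of those 24 fell short only at C2. Of the 20855 gene probes of the deposited table, 17323 met it. The test was limma with 1 model over the 15 arrays, and a gene was called when its adjusted p, with the Benjamini-Hochberg adjustment over all 17323 valid probes, was under 0.01.

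Promoter windows of members were available for 38 of the 58 genes, and a few are printed because their genes lead the changes reported here or lie back to back with a partner chain. They are the 250 bases before the RefSeq start of each gene (GRCm38.p6), 5′ to 3′ on the gene's own strand, with CCAAT boxes (CCAAT), GC boxes (GGGCGG) and TATA boxes (TATAAA) found on either strand in capitals. Col1a2 lies at chr6:4505368-4505617 on the plus strand and Col3a1 at chr1:45311288-45311537 on the plus strand, the windows of a pair of interstitial collagens that were lower at C2. Col4a5 lies at chrX:141475169-141475418 on the plus strand and Col4a6 at chrX:141474077-141474326 on the minus strand, so that both windows lie between the starts of the genes, which are 1343 bases apart and point away from each other. Col18a1, which had the largest rise at C2 in the main test, has windows at chr10:77113706-77113955 and chr10:77166531-77166780 on the minus strand, for the downstream and the upstream annotated start, which the array probes do not tell apart.
Col1a2: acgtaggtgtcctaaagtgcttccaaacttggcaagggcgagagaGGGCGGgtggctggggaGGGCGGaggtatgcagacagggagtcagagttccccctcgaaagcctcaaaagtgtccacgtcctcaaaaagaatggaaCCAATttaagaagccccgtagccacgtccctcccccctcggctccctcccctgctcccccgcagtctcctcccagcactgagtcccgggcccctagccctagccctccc
Col3a1: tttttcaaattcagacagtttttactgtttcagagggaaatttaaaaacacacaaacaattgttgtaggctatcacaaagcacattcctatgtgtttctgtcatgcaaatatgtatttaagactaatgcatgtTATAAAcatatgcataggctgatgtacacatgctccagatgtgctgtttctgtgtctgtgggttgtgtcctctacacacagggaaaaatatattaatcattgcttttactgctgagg
Col4a5: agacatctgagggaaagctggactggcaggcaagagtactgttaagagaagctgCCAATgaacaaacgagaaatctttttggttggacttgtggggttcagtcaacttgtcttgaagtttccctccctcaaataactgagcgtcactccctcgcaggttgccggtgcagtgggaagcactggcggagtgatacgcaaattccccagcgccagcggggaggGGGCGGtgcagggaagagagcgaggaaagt
Col4a6: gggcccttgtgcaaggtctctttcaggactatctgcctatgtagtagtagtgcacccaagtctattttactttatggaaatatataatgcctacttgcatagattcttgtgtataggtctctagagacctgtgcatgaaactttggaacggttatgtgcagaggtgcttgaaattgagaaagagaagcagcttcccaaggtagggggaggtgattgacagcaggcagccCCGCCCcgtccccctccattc
Col18a1, downstream start: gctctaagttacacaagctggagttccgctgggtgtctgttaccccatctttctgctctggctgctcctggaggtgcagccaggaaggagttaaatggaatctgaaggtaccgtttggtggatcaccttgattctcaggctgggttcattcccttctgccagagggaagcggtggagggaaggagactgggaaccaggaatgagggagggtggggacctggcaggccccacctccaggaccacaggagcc
Col18a1, upstream start: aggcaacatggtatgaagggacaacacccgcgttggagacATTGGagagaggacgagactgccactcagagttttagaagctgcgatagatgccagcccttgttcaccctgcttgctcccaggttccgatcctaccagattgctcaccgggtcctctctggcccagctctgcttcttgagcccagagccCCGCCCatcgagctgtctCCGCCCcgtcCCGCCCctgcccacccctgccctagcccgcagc
The Col1a2 window has 2 GC boxes and 1 CCAAT box, and the Col3a1 window has 1 TATA box and neither of the other motifs. Col4a5 has 1 CCAAT box and 1 GC box, and Col4a6 has 1 GC box. The window of the upstream Col18a1 start has 1 CCAAT box and 3 GC boxes, and that of the downstream start has none of the 3 motifs. Over the 38 members, 13 had a CCAAT box, 25 a GC box and 5 a TATA box in at least 1 window. Among all 27025 genes with a window, 37.5% had a CCAAT box, 35.4% a GC box and 14.3% a TATA box. Col4a1 and Col4a2 on chromosome 8 also start back to back, at 11312826 on the minus strand and 11312805 on the plus strand, so that their annotated transcripts overlap at the starts, and no upstream sequence is shown for them.

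Both type I collagen chains, Col9a2, decorin, Fbn2 and Loxl1 were far lower around ovulated oocytes, whereas the α1 and α2 chains of type IV collagen, collagen XVIII, fibronectin, Loxl2 and Loxl3 were higher. From C1 to C2, 12 of the 34 tested genes rose and 15 fell. The share called among all valid probes was 47.6%, with 25.4% higher and 22.2% lower. With spike-in scaling the members' counts were 7 higher and 13 lower, and with all gene probes as the scale 13 and 12, where the median of all valid probes moved to 0.33. The median log2 change was -0.52 over the 34 genes and 0.02 over all valid probes. Changes of at least 8-fold were seen in 6 genes that fell (Col1a2, Col9a2, Col1a1, Dcn, Fbn2, Loxl1) and 2 that rose (Col18a1, Fn1), against 0.912% of all valid probes that fell and 0.612% that rose that far. Each of the 4 slides held arrays of all 3 stages. The 27 called genes changed in the called direction on all 4 slides, but they were called from these same arrays, so nothing is read from this. C2 and C1 values did not overlap in 25 of the 34 tested genes, against 43.9% of all valid probes.

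**Figure D1:**
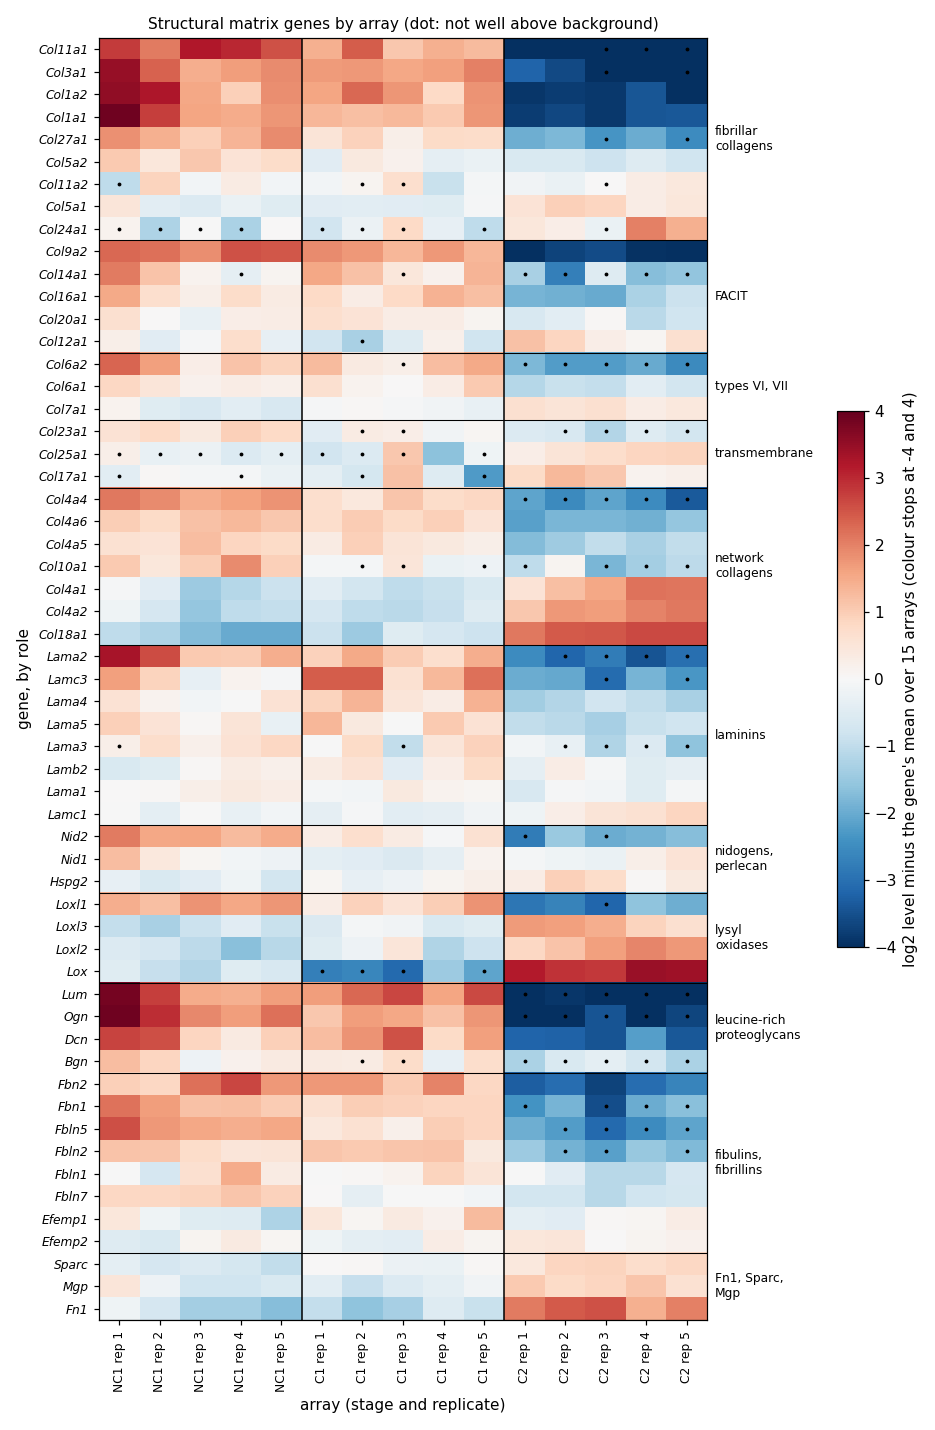
Log2 level of 57 of the 58 structural matrix genes (rows, grouped by role and ordered in a role by the difference between the C2 and C1 means) on the 15 arrays (columns), each minus the gene's mean over the 15 arrays (colours stop at -4 and 4), with a dot where the probe was not well above background. Col1a1, Col1a2, Col3a1, Col11a1, lumican, osteoglycin and decorin are blue on all 5 C2 arrays, and all of these but Col11a1 are darkest red on NC1 replicate 1, while Col18a1, Lox and Fn1 are red on the C2 arrays.

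The collagens of connective tissue fibres were among the genes that fell most. Col1a1 and Col1a2 encode the 2 chains of type I collagen. Col1a1 read 3.82, 2.68, 1.50, 1.40 and 1.68 on NC1 replicates 1 to 5, 1.24, 1.12, 1.24, 0.97 and 1.70 on C1 replicates 1 to 5, and -3.86, -3.70, -3.94, -3.49 and -3.46 on C2 replicates 1 to 5. Col1a2 read 4.14, 3.82, 2.13, 1.55 and 2.43 at NC1, 2.16, 2.87, 2.33, 1.37 and 2.37 at C1, and -3.32, -3.23, -3.29, -2.84 and -3.79 at C2. In both genes every C2 array lay far below every C1 and NC1 array, and NC1 replicates 1 and 2 were the highest of all. From C1 to C2, Col1a1 fell 30.8-fold (log2 change -4.94 ± 0.35 SE, n = 5 per stage, limma adjusted p = 5.22e-09) and Col1a2 fell 45.7-fold (-5.52 ± 0.41, adjusted p = 9.36e-09).

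Col3a1, the type III chain that forms thin fibres beside type I, was well above background on 3 of the 5 C2 arrays and so was left out of the main test. It read 3.02, 1.90, 0.99, 1.20 and 1.42 at NC1, 1.24, 1.25, 1.08, 1.16 and 1.55 at C1, and -3.69, -4.07, -4.72, -4.45 and -4.95 at C2. Its C2 arrays were separated from all others as those of type I were. In a fit that kept probes present at 1 stage or more, its log2 change was -5.63, and in that fit 24.5% of probes were called lower and 24.2% higher, 48.7% in all. A gene that entered through the stage at which it was high was bound to differ, so these values describe the genes one by one, and no count of them is read. For genes outside the main test, an adjusted p of that fit is printed only where it missed the threshold. A difference from a stage at background is also not an exact size. Col11a1, a minor chain of cartilage-type fibres, read 2.32, 1.62, 2.74, 2.55 and 2.07 at NC1, 0.96, 1.97, 0.61, 0.97 and 0.80 at C1, and -4.67, -4.48, -4.46, -5.13 and -4.80 at C2, where 2 arrays were above background. Its C1 to C2 log2 change in the same fit was -5.77. Col27a1, another fibrillar chain, was seen on 3 of the 5 C2 arrays, with a log2 change of -2.76. Col3a1 and Col11a1 are described array by array because of their values, beyond the rule for naming genes.

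Type V collagen, which nucleates type I fibrils, changed little by comparison. Col5a1 read 0.13, -0.77, -0.92, -0.62 and -0.85 at NC1, -0.80, -0.78, -0.79, -0.85 and -0.40 at C1, and 0.19, 0.61, 0.51, -0.05 and 0.10 at C2. All 5 C2 arrays were above all C1 arrays, although NC1 replicate 1 lay among them. Col5a1 rose 1.99-fold (log2 change 1.00 ± 0.18, adjusted p = 0.000201), a call that was lost when arrays were scaled on the spike-in probes. Its partner chain Col5a2 read -1.83, -2.42, -1.81, -2.35 and -2.14 at NC1, -3.35, -2.49, -2.71, -3.25 and -3.14 at C1, and -3.48, -3.50, -3.71, -3.40 and -3.69 at C2. The C1 to C2 change of Col5a2 was -0.57 ± 0.17 (adjusted p = 0.00836) and lost its call under 18 of 28 alternative settings. Col11a2 and Col24a1, the other fibrillar chains, were seen on 3 and 1 of the C1 arrays and were not called from C1 to C2 in the fit of probes present at 1 stage or more (adjusted p = 0.749 and 0.049).

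Among the FACIT collagens, which sit on fibril surfaces, Col9a2 showed the clearest separation of stages. This chain of type IX collagen, best known from cartilage, read 2.76, 2.67, 2.34, 3.03 and 2.96 at NC1, 2.36, 2.20, 1.79, 2.20 and 1.80 at C1, and -3.66, -3.24, -3.12, -3.49 and -3.59 at C2. It fell 45.0-fold (log2 change -5.49 ± 0.16, adjusted p = 3.77e-13), and its NC1 values did not set replicate 1 apart as those of Col1a1 did. Its sister chains Col9a1 and Col9a3 are among the genes with no probe in the table. Col16a1 read 1.19, 0.34, -0.11, 0.39 and 0.00 at NC1, 0.45, -0.03, 0.46, 1.05 and 0.87 at C1, and -2.20, -2.27, -2.37, -1.60 and -1.20 at C2, a 5.60-fold fall (-2.48 ± 0.27, adjusted p = 7.55e-07). A second Col16a1 probe gave -3.08, but another, which was dim, gave -0.36 and was not called (adjusted p = 0.397 in the fit of probes present at 1 stage or more). Col12a1, found in dense connective tissue, moved the other way from C1 to C2, but C2 was not called against NC1 (0.57, limma adjusted p = 0.0812). It read -2.56, -3.26, -2.84, -2.09 and -3.12 at NC1, -3.57, -4.10, -3.31, -2.61 and -3.59 at C1, and -1.63, -1.93, -2.55, -2.74 and -2.15 at C2, and it rose 2.35-fold from C1 (1.24 ± 0.28, adjusted p = 0.00102) with C1 replicate 4 inside the C2 range and C1 replicate 2 not above background. Its call was lost with spike-in scaling. Col20a1 fell by 0.96 ± 0.20 on the log2 scale (adjusted p = 0.000597) and lost its call when arrays were scaled on all gene probes. Col14a1 was seen on 4 of 5 C1 arrays and on no C2 array, where its level at C1 was higher by a factor of at least 2.92 (1.77 with normexp background correction).

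Of the microfibril and anchoring collagens, Col6a1 fell and Col7a1 rose. Type VI collagen forms beaded filaments around cells, and type VII forms anchoring fibrils. Col6a1 read 2.37, 2.02, 1.71, 1.84 and 1.72 at NC1, 2.17, 1.67, 1.56, 1.82 and 2.58 at C1, and 0.39, 0.64, 0.58, 1.11 and 0.80 at C2. Its fall was 2.38-fold (log2 change -1.25 ± 0.19, adjusted p = 3.2e-05), with no overlap between C2 and the other stages. Col6a2, its partner chain, was seen on all NC1 arrays, on 4 C1 arrays and on no C2 array, so that it exceeded C2 at least 3.04-fold at C1 and at least 3.83-fold at NC1 (2.30 and 2.52 with normexp background correction). Col7a1 read -1.76, -2.39, -2.53, -2.31 and -2.53 at NC1, -1.95, -1.86, -1.95, -2.05 and -2.19 at C1, and -1.26, -1.37, -1.25, -1.62 and -1.46 at C2, and its 1.52-fold rise (0.61 ± 0.14, adjusted p = 0.00116) lost its call with spike-in scaling. None of the 3 transmembrane collagens (Col17a1, Col23a1, Col25a1) had a valid probe. Col25a1 was seen on no NC1 array, 1 C1 array and all C2 arrays, with values from -4.16 to -3.52 at C2. It was at least 1.70-fold higher at C2 than at NC1 by this bound (1.29 with normexp background correction), but this probe was not called in the fit of probes present at 1 stage or more (adjusted p = 0.0382). A second Col25a1 probe, also outside the main test, was called higher at C2 in that fit. Its log2 change was 1.83 from NC1 and 1.88 from C1.

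**Figure D2:**
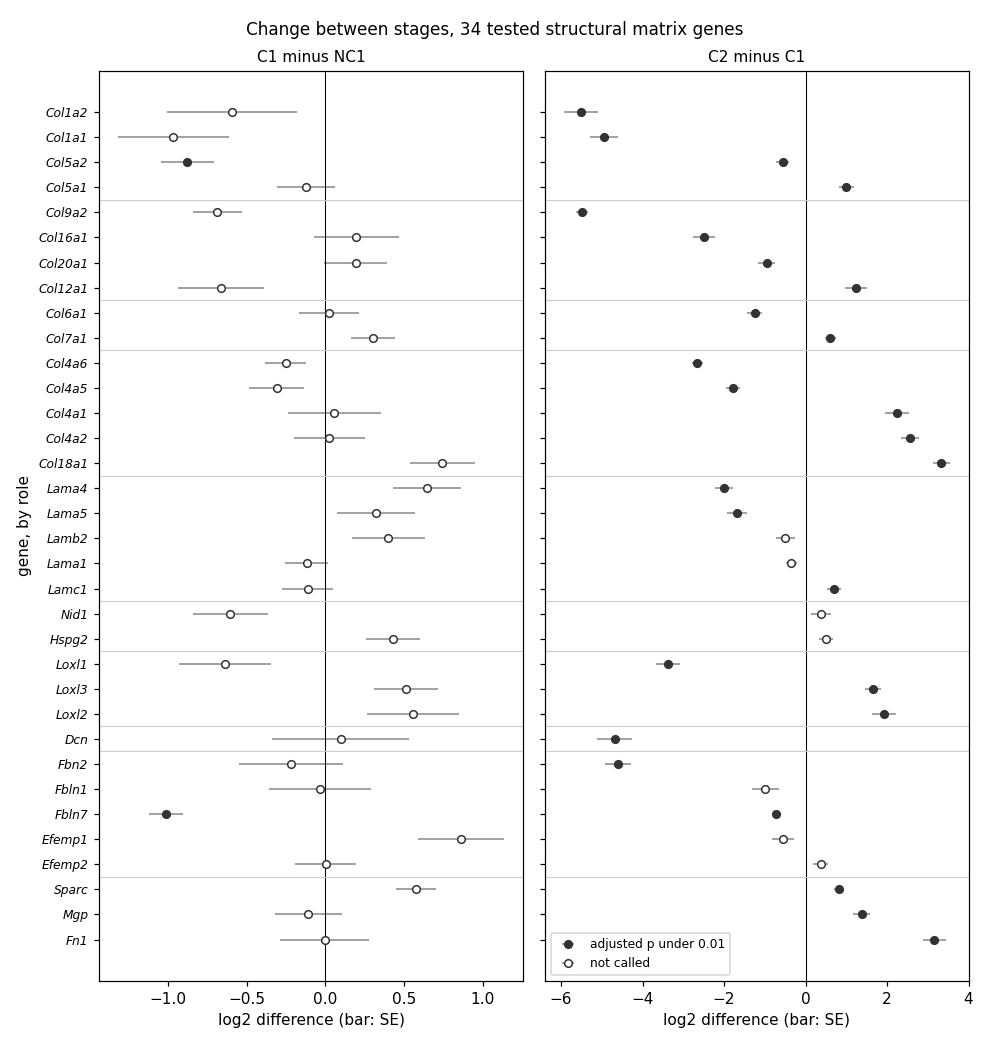
Log2 difference between stages for the 34 tested genes, C1 minus NC1 on the left and C2 minus C1 on the right (points, with the standard error of the model as bars; filled points have a limma adjusted p under 0.01; n = 5 arrays per stage). The left panel spans -1.01 to 0.86 and has 2 filled points, whereas the right panel spans -5.52 to 3.32 and has 27.

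Chains of type IV collagen, the network of basement membranes, split into those that rose and those that fell. The α1 and α2 chains assemble together into the ubiquitous network, and α3 to α6 form more restricted ones. Col4a1 read 0.62, 0.22, -0.81, -0.48 and -0.20 at NC1, 0.23, -0.06, -0.36, -0.22 and 0.06 at C1, and 1.21, 1.87, 2.20, 2.82 and 2.81 at C2. Col4a2 read 0.82, 0.31, -0.56, -0.03 and 0.03 at NC1, 0.30, -0.04, -0.09, 0.07 and 0.46 at C1, and 2.07, 2.73, 2.65, 2.96 and 3.08 at C2. All C2 arrays were above all others in both genes, and C2 replicate 1 was the lowest C2 array in both. Col4a1 rose 4.77-fold (log2 change 2.25 ± 0.30, adjusted p = 5.89e-06) and Col4a2 rose 5.89-fold (2.56 ± 0.23, adjusted p = 6.75e-08).

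The α5 and α6 chains, whose genes lie back to back on the X chromosome, went down. Col4a5 fell 3.43-fold (log2 change -1.78 ± 0.17, adjusted p = 2.04e-07), from 1.25 to 1.98 at C1 to -0.72 to 0.03 at C2. Col4a6 read 1.01, 0.80, 1.20, 1.35 and 1.11 at NC1, 0.75, 1.04, 0.81, 1.00 and 0.60 at C1, and -2.14, -1.78, -1.79, -1.87 and -1.51 at C2. Neither gene's C2 values reached those of C1. The fall of Col4a6 was 6.32-fold (-2.66 ± 0.13, adjusted p = 9.25e-11), but its second valid probe changed by only -0.39 and was not called (adjusted p = 0.016 in the fit of probes present at 1 stage or more), so that its probes disagree on the size. Col4a4 read -0.77, -0.98, -1.44, -1.28 and -1.09 at NC1 and -2.20, -2.45, -1.77, -2.13 and -2.06 at C1, and was seen on no C2 array. It exceeded C2 at least 12.2-fold at NC1 and at least 6.04-fold at C1 (4.98 and 2.83 with normexp background correction), and a second, dimmer probe gave a log2 change from C1 of -0.72.

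Collagen XVIII, a proteoglycan of basement membranes whose C-terminal piece is endostatin, had the largest rise of the 34 tested genes. Col18a1 read 0.57, 0.35, -0.14, -0.42 and -0.43 at NC1, 0.75, 0.12, 1.098, 0.92 and 0.77 at C1, and 3.71, 4.04, 4.09, 4.22 and 4.23 at C2. It rose 10.02-fold (log2 change 3.32 ± 0.21, adjusted p = 1.27e-09), and its second probe gave 3.31. The 5 C2 arrays were within 0.6 of each other and far above the rest. Col4a1 and Lama1 are given array by array because of their values. Col10a1, a short-chain network collagen, was seen on all NC1 arrays, 2 C1 arrays and 1 C2 array and was not called between C1 and C2.

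Laminins, the cross-shaped trimers of α, β and γ chains that nucleate basement membranes, differed by chain. Of 5 tested laminin genes, 1 rose, 2 fell and 2 were not called, where 25.4% of all valid probes were called higher and 22.2% lower. Lama1 read 5.81, 5.82, 6.01, 6.17 and 6.07 at NC1, 5.69, 5.66, 6.17, 5.92 and 5.85 at C1, and 5.15, 5.73, 5.68, 5.28 and 5.69 at C2, and its difference from C1 to C2 of -0.35 ± 0.14 missed the threshold (adjusted p = 0.0369). Its C1 values overlapped those of both other stages, whereas C2 lay below NC1 on all arrays and was called lower than NC1 (-0.47, adjusted p = 0.00711). Lamc1, the γ1 chain found in most laminin trimers, read 1.99, 1.59, 1.99, 1.71 and 1.90 at NC1, 1.64, 1.95, 1.57, 1.63 and 1.86 at C1, and 1.83, 2.27, 2.53, 2.62 and 2.87 at C2, and rose 1.62-fold with overlapping arrays (log2 change 0.70 ± 0.16, adjusted p = 0.00144; lost with spike-in scaling). Lamb2, the β2 chain, was not called (-0.50 ± 0.23, adjusted p = 0.0741).

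The α4 and α5 chains fell. Lama4, the α4 chain of vessel and muscle basement membranes, read -0.997, -1.44, -1.70, -1.60 and -1.004 at NC1, -0.69, -0.24, -1.11, -1.29 and -0.19 at C1, and -2.97, -2.77, -2.34, -2.57 and -2.90 at C2, a 4.02-fold fall (log2 change -2.01 ± 0.22, adjusted p = 6.7e-07). Lama5, the broadly expressed epithelial α5 chain, read 0.28, -0.14, -0.64, -0.15 and -0.98 at NC1, 0.66, -0.27, -0.69, 0.37 and -0.10 at C1, and -1.64, -1.77, -1.99, -1.58 and -1.47 at C2, a 3.22-fold fall (-1.69 ± 0.25, adjusted p = 1.89e-05). In each the C2 arrays were below all others. Lama2, the α2 chain of muscle laminin, was seen on 1 C2 array and had a log2 change of -4.10, with a second probe at -4.05. Lamc3 was seen on 3 C2 arrays, with a change of -4.05, and it varied widely at C1, from -1.70 to 0.12. Lama3, the α3 chain, was seen on 1 C2 array and was not called.

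Of the linkers of laminin and type IV collagen networks, neither tested gene was called. Nid1 had a log2 change of 0.37 ± 0.24 from C1 to C2 (adjusted p = 0.196) and Hspg2, the perlecan core protein, of 0.51 ± 0.17 (adjusted p = 0.0163). Hspg2 passed under 4 of 28 alternative settings. Nid2 fell from between -2.35 and -1.62 at C1 to between -5.09 and -3.79 at C2, where 3 arrays were above background (difference in mean log2 level -2.34).

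The lysyl oxidases, copper enzymes that cross-link collagen and elastin, went both ways, with Lox, Loxl2 and Loxl3 higher and Loxl1 lower at C2. Lox, which is described array by array because of its values, read -3.11, -3.55, -3.79, -3.10 and -3.27 at NC1, -5.36, -5.22, -5.74, -4.06 and -4.73 at C1, and 0.55, 0.26, 0.22, 0.82 and 0.77 at C2. It was well above background on all NC1 and C2 arrays but at C1 only in replicate 4. That array had a high sum of expanded cumulus markers. It also had the most gene probes well above background (24493, against 19167 to 21208 on the other C1 arrays). Whether either of these bears on Lox being seen there was not tested. The means differed by 5.54 on the log2 scale from C1 to C2 and by -1.66 from NC1 to C1, and those of its second probe by 5.41 and -1.78, sizes that are not exact because most C1 arrays were at background. Without C1 replicate 4, Lox was seen on no C1 array.

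Loxl2 read 1.27, 1.14, 0.79, 0.15 and 0.72 at NC1, 1.32, 1.62, 2.29, 0.63 and 0.98 at C1, and 2.65, 2.97, 3.46, 3.79 and 3.56 at C2, a 3.78-fold rise (log2 change 1.92 ± 0.29, adjusted p = 2.88e-05) that its 2 other probes showed at 2.02 and 2.27. Loxl3 read -3.29, -3.62, -3.19, -2.80 and -3.24 at NC1, -2.91, -2.42, -2.47, -2.95 and -2.83 at C1, and -0.64, -0.69, -0.87, -1.43 and -1.68 at C2, a 3.15-fold rise (1.65 ± 0.20, adjusted p = 2.93e-06). For both, the lowest C2 array was above the highest earlier one. Loxl1, which is needed for elastic fibre upkeep, read 0.38, 0.14, 0.73, 0.48 and 0.69 at NC1, -0.75, -0.15, -0.53, -0.07 and 0.73 at C1, and -3.95, -3.74, -4.23, -2.68 and -3.02 at C2, where replicate 3 was not above background. It fell 10.3-fold (-3.37 ± 0.29, adjusted p = 5.23e-08), and its second probe gave -2.50.

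**Figure D3:**
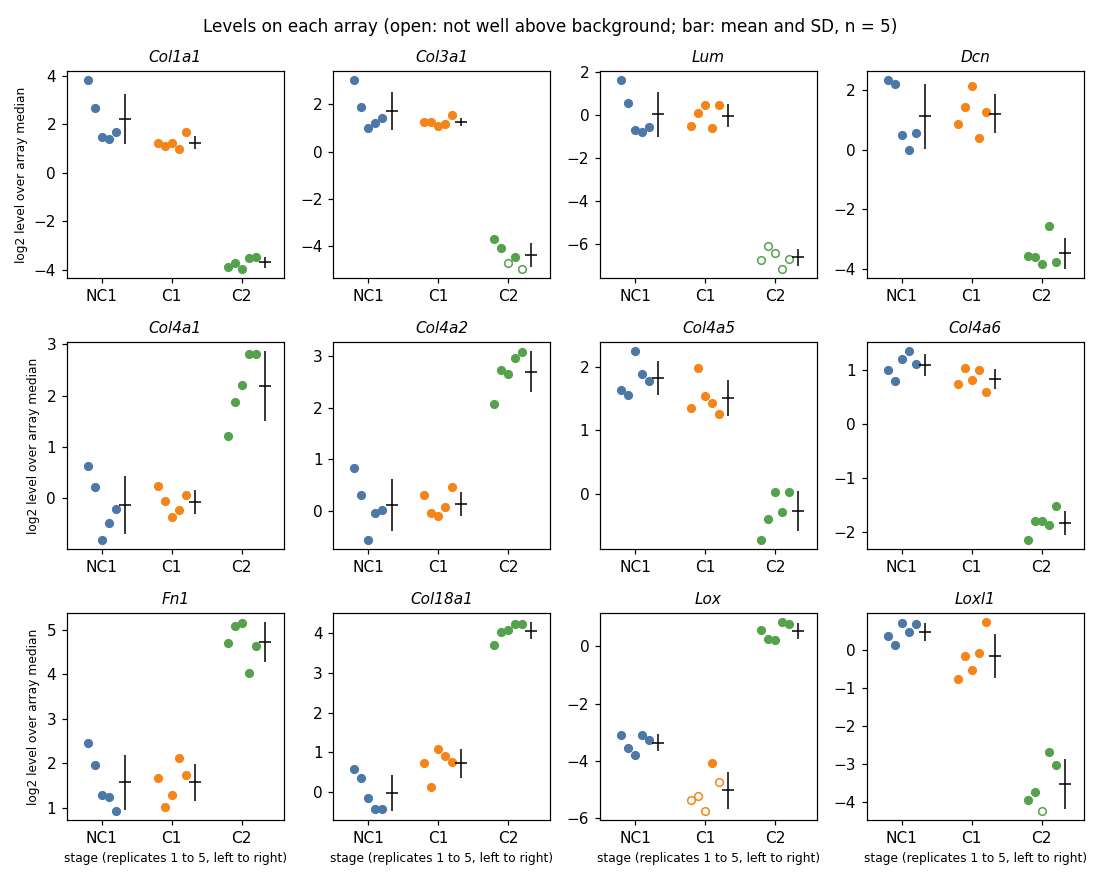
Log2 level over the array median on each array for 12 genes, by stage, with replicates 1 to 5 from left to right, open points where the probe was not well above background, and the mean and SD (n = 5) as a bar. The vertical scale differs between panels. Col1a1, Col3a1, Lum and Dcn drop at C2 and are highest in NC1 replicate 1, Col4a1 and Col4a2 rise where Col4a5 and Col4a6 fall, and Lox is lowest at C1.

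Small leucine-rich proteoglycans, which bind collagen fibrils and set their thickness, were seen on no C2 array in 3 of 4 cases, and the other, decorin, fell. Dcn, which encodes decorin, read 2.33, 2.20, 0.48, -0.02 and 0.57 at NC1, 0.85, 1.42, 2.15, 0.38 and 1.26 at C1, and -3.58, -3.60, -3.84, -2.57 and -3.78 at C2, a 25.8-fold fall from C1 (log2 change -4.69 ± 0.44, adjusted p = 1.25e-07). Lum, lumican, read 1.60, 0.53, -0.74, -0.79 and -0.55 at NC1 and -0.54, 0.08, 0.45, -0.64 and 0.43 at C1, and was seen on no C2 array. Its level therefore exceeded that of C2 at least 26.9-fold at C1 and at least 27.9-fold at NC1. These bounds set the bright stage against the lowest signal called well above background on each C2 array, and with normexp background correction they came to 13.8-fold and 14.0-fold.

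Ogn, osteoglycin, read 1.39, 0.46, -0.56, -0.84 and -0.28 at NC1 and -1.42, -0.83, -0.95, -1.33 and -0.72 at C1, and was also seen on no C2 array, with bounds of at least 13.4-fold over C2 for C1 and at least 28.4-fold for NC1 (5.04 and 9.87 with normexp). Bgn, biglycan, was seen on all NC1 arrays, 3 C1 arrays and no C2 array, exceeding C2 at least 2.11-fold at NC1 and at least 1.95-fold at C1 (1.43 and 1.32 with normexp). Lum, Ogn and Col4a4 were the 3 members seen on all C1 arrays and on no C2 array, a pattern of 1.39% of the probes of the table, and with Bgn and Col6a2 they were the 5 seen on all NC1 arrays and no C2 array, against 2.12%. No member was seen on all C2 arrays and no C1 array, against 0.316%. None was seen on all NC1 arrays and no C1 array (0.00480%) or on all C1 arrays and no NC1 array (0.168%), and Col25a1 was the 1 seen on all C2 arrays and no NC1 array (1.38%).

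Of 5 tested genes for fibrillins and fibulins, 2 fell from C1 to C2, none rose and 3 were not called, where 47.6% of all valid probes were called. Fbn2, the fibrillin of developing tissues, read 2.35, 2.23, 3.60, 4.07 and 3.15 at NC1, 3.13, 3.13, 2.43, 3.40 and 2.22 at C1, and -1.90, -1.63, -2.29, -1.64 and -1.25 at C2, a 24.3-fold fall from C1 (log2 change -4.60 ± 0.33, adjusted p = 5.57e-09), and its second probe gave -3.94. Contrary to the type I collagen genes, its NC1 values were lowest on replicates 1 and 2. Fbn1, the main fibrillin of adult tissue, was seen on 1 C2 array (difference in mean log2 level from C1 -3.13), Fbln5 on 1 (-2.99) and Fbln2 on 2 (-2.71). Fbln1, a plasma and basement membrane fibulin, had a difference of -0.99 ± 0.32 that missed the threshold (adjusted p = 0.0149), while its second probe passed with -1.0001 (adjusted p = 0.000152 in the fit of probes present at 1 stage or more). Efemp1 (-0.55 ± 0.27, adjusted p = 0.094) and Efemp2 (0.37 ± 0.19, adjusted p = 0.115) were not called.

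Fibronectin, Sparc and matrix Gla protein all rose. Fn1, the adhesive glycoprotein that cells assemble into fibrils through integrins, read 2.45, 1.95, 1.28, 1.25 and 0.93 at NC1, 1.66, 1.02, 1.29, 2.12 and 1.75 at C1, and 4.70, 5.09, 5.16, 4.04 and 4.65 at C2. It rose 8.92-fold (log2 change 3.16 ± 0.28, adjusted p = 8.06e-08), with all C2 arrays above all others. Sparc, a collagen-binding chaperone-like protein secreted with basement membranes, read 6.03, 5.76, 5.87, 5.74 and 5.46 at NC1, 6.44, 6.49, 6.20, 6.15 and 6.47 at C1, and 6.86, 7.30, 7.31, 7.13 and 7.27 at C2. Its levels at the 3 stages did not overlap, and it rose 1.77-fold from C1 to C2 (0.83 ± 0.12, adjusted p = 2.6e-05; lost with spike-in scaling). Mgp, an inhibitor of calcification, read 2.67, 1.97, 1.38, 1.38 and 1.58 at NC1, 1.75, 1.25, 1.63, 1.79 and 2.03 at C1, and 3.23, 2.94, 3.05, 3.29 and 2.80 at C2, a 2.59-fold rise (1.37 ± 0.22, adjusted p = 3.93e-05).

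Between juvenile and adult cells around prophase I oocytes the same genes differed little. From NC1 to C1, 2 of the 34 tested genes were called, both lower, whereas 2.52% of all valid probes were called and 0.768% were called lower. By the F test over the 3 stages, 28 of the 34 genes and 51.6% of all valid probes differed. The median log2 change was 0.00 over the members and -0.03 over all valid probes. Fbln7, a fibulin with adhesive properties, read -0.65, -0.66, -0.60, -0.37 and -0.57 at NC1, -1.45, -1.86, -1.49, -1.51 and -1.61 at C1, and -2.23, -2.21, -2.60, -2.27 and -2.17 at C2. Its 3 stages did not overlap. It fell 2.02-fold from NC1 to C1 (log2 change -1.01 ± 0.11, adjusted p = 2.19e-05; lost with spike-in scaling), its second probe gave -0.92, and it fell a further 1.64-fold to C2 (-0.71 ± 0.11, adjusted p = 3.14e-05; lost when arrays were scaled on all gene probes or on spike-in probes).

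Col5a2, whose values were given with the fibrillar collagens, was the other gene called, with a 1.84-fold fall from NC1 to C1 (log2 change -0.88 ± 0.17, adjusted p = 0.00422) that lost its call under 12 of 28 alternative settings. Both genes were lower at C1 on all 4 slides, which follows from NC1 and C1 values that did not overlap. Sparc just missed the threshold (0.58 ± 0.12, adjusted p = 0.0105) and Col9a2 did so in the other direction (-0.68 ± 0.16, adjusted p = 0.0148). Outside the main test, 12 genes were seen on all NC1 and C1 arrays. Of these, Nid2 (-1.22), Col11a1 (-1.20) and Fbln5 (-1.16) were called lower at C1 in the fit of probes present at 1 stage or more. In that fit 0.840% of probes were called lower and 2.10% higher, 2.94% in all. Groups did not overlap between C1 and NC1 in 3 of the 34 tested genes, against 5.98% of all valid probes.

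Against NC1, C2 showed 12 of the 34 genes higher and 16 lower, where 26.5% and 24.9% of all valid probes were called, 51.5% in all. This comparison shares its arrays with both others.

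NC1 replicate 1 held the highest NC1 value of most members. Of 54 members seen on at least 4 NC1 arrays, 33 had their highest NC1 value in replicate 1, among them Col1a1, Col1a2, Col3a1, Dcn, Lum, Ogn, Lama2, Fbn1, Col4a1, Col4a2 and Fn1. Over all valid probes replicate 1 was the highest NC1 array in 17.5%. The same array had the highest NC1 sum of theca, stroma and smooth muscle markers (25.2), of endothelial markers (1.52), of ovarian surface markers (4.12) and of oocyte markers (39.0). Replicate 2 came next in stroma markers and had the highest sum of red blood cell markers (389, against 67.3 to 301 on the other NC1 arrays). Col9a2, Fbn2, Fbln1, Fbln7, Lama1, Lamb2, Col12a1 and Col4a6 were highest in replicate 4 in its place, and Col11a1, Col4a5, Col5a2 and Loxl1 in replicate 3. With NC1 replicate 1 left out, Col5a2 lost its call from NC1 to C1 (log2 change -0.80) and Sparc gained one (0.65).

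**Figure D4:**
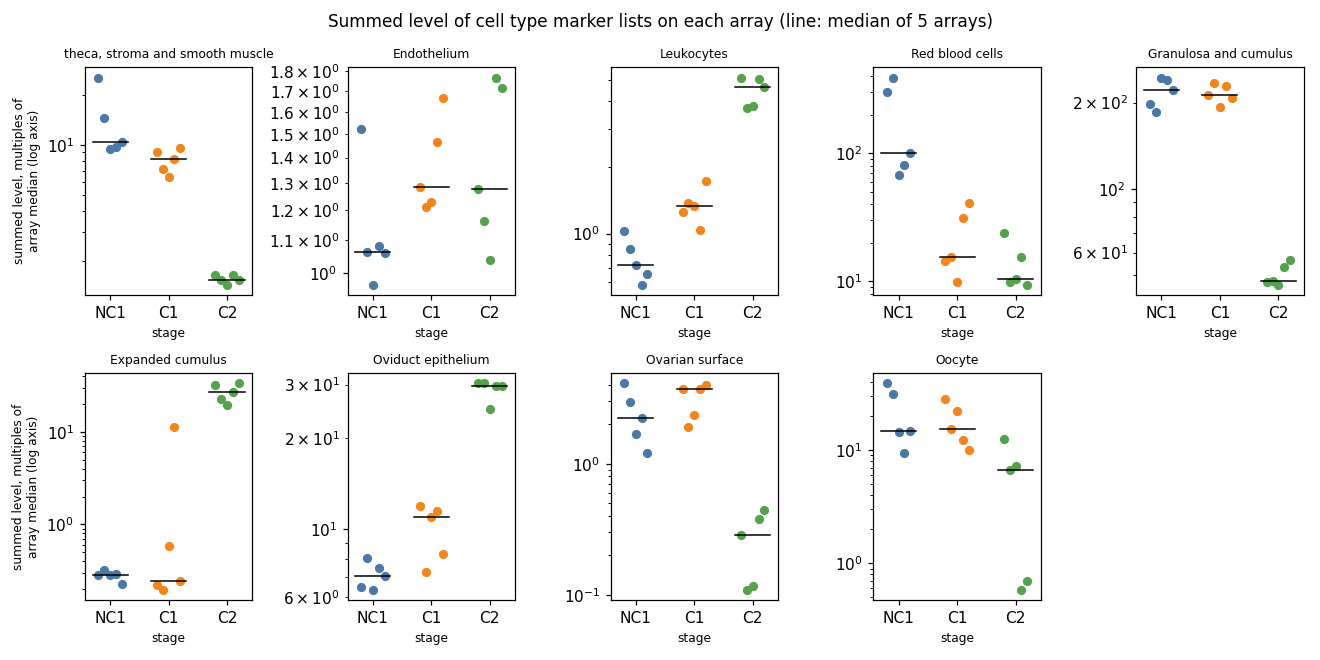
Summed level of each list of cell type markers on each array, in multiples of the array median on a log axis, by stage, with a line at the median of the 5 arrays. Theca, stroma and smooth muscle markers lie at 1.45 to 1.65 at C2 against 6.39 to 9.63 at C1, leukocyte markers sum to 1.04 to 1.73 at C1 and 3.73 to 5.10 at C2, and C1 replicate 4 is set apart in the expanded cumulus panel.

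Marker lists of other cells did not all move in 1 direction from C1 to C2. The sum of granulosa and cumulus markers was also lower at C2 (median 47.7, against 212 at C1). Amh, Amhr2, Cyp19a1, Esr2, Fshr, Inha and Slc38a3 were called lower at C2 than at C1. Foxl2 (0.03) and Nr5a1 (0.64) were not called from C1 to C2, and Nr5a1 was called higher at C2 than at NC1 (1.03). Among the 13 stroma markers, 5 had valid probes and all 5 fell, where 22.2% of all valid probes were called lower. They were Acta2 (log2 change -4.79, limma adjusted p = 4.58e-09), Pdgfrb (-3.05, limma adjusted p = 4.28e-09), Tagln (-2.32), Cyp17a1 (-1.41) and Nr2f2 (-1.05). Ovarian surface markers summed to 1.90 to 3.98 at C1 and to 0.109 to 0.440 at C2. Of 6 leukocyte markers, Cd52 (3.01) and Cd14 (1.22) were called higher, Csf1r was not called (0.38) and 3 had no valid probe. Their sum was 1.04 to 1.73 at C1 and 3.73 to 5.10 at C2, while endothelial markers summed to 1.21 to 1.66 at C1 and 1.04 to 1.77 at C2. Of the endothelial markers, Cdh5 was called higher at C2 (1.50, adjusted p = 0.000125) and Kdr was not called (0.09). Cldn5 was seen on 5 C1 arrays and 1 C2 array, Vwf on 3 and 1, and Pecam1 on 4 and 4. Emcn was seen on 4 C1 arrays, Tie1 on 1 and neither on a C2 array, and Tek was seen on no array. Oviduct epithelium markers summed to 7.25 to 11.9 at C1 and 25.0 to 30.3 at C2, with Krt18 (1.76) and Krt8 (1.30) called higher, Epcam (-1.05) and Tppp3 (-1.01) called lower, Cdh1 not called (0.05) and Pax8 seen on no array. Ovgp1 varied widely (SD 1.73 at C1 and 1.54 at C2) and was not called from C1 to C2 (2.28, limma adjusted p = 0.0343). Against NC1, Ovgp1 was called higher at C2 (3.32, limma adjusted p = 0.00347). Foxj1 had no valid probe. Oocyte markers summed to 9.96 to 28.4 at C1 and 0.582 to 12.4 at C2, and red blood cell markers to 9.89 to 41.3 and 9.44 to 24.1. In bulk samples fewer cells of a type and less RNA per cell cannot be told apart, and the part of these cell types in the changes of matrix genes was not tested.

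The machinery that makes collagen changed in parts. Of 24 tested genes for collagen folding, modification, export and trimming, 6 rose and 9 fell from C1 to C2, against 25.4% and 22.2% of all valid probes, and the median log2 change was -0.13 (0.02 over all valid probes). Tgm2, a transglutaminase that cross-links matrix proteins, rose most (1.54), followed by Bmp1, the procollagen C-proteinase that also activates lysyl oxidase (1.31), and the prolyl 3-hydroxylase gene P3h2 (1.22). The prolyl 4-hydroxylase subunit gene P4ha2 averaged 0.88 ± 0.28 (SD, n = 5) in NC1 cells, 1.65 ± 0.19 in C1 cells and 2.80 ± 0.11 in C2 cells, and was called higher at both steps. Colgalt2, a collagen galactosyltransferase (-3.82), and Adamts2, the procollagen N-proteinase (-3.60), fell most, and P3h3 (-0.99) came next. Serpinh1, the collagen chaperone, and P4hb, the protein disulfide isomerase shared by the prolyl 4-hydroxylases, were not called (-0.20 and 0.09). From NC1 to C1, Pcolce (1.30) and P4ha2 (0.77) rose, and P3h2 (-1.10) and Adamts2 (-0.64) fell. When arrays were scaled on all gene probes, 6 genes of this list rose and 3 fell at C2.

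Cell-surface receptors of matrix proteins were also divided, with 8 of 23 tested genes higher and 9 lower at C2, or 8 and 6 when arrays were scaled on all gene probes, against 25.4% and 22.2% of all valid probes. Itgb3, which pairs with αv or αIIb to bind fibronectin and vitronectin, rose by 3.11 on the log2 scale, syndecan-1 (Sdc1) by 2.77, and Itga5, whose product binds fibronectin with β1, by 2.28. Those that fell most were the laminin receptor chain Itga6 (-2.01), the collagen receptor chain Itga11 (-1.46) and the collagen receptor kinase Ddr2 (-1.44). Itga7, a laminin receptor chain, was the gene of the list called from NC1 to C1 (-1.72, adjusted p = 3.41e-05). The median change of the list from C1 to C2 was 0.13.

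Of 20 tested growth factor binding and matricellular genes, 6 were higher and 12 lower at C2, against 25.4% and 22.2% of all valid probes, and the median log2 change was -1.50 (0.02 over all valid probes). Ltbp4 (-3.49), the microfibril gene Mfap2 (-3.45) and Smoc2 (-2.86) fell most. Tgfb1 (2.26), tenascin-C (Tnc, 2.04) and the receptor gene Tgfbr1 (1.91) rose most. From NC1 to C1, Tgfbi was called higher (1.42, adjusted p = 0.00524), and it was not called with the unmoderated analysis of variance. Postn and Thbs2, genes of activated connective tissue, were seen on 3 and 1 of the C1 arrays and on no C2 array.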

How the data were processed

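Cumulus cell RNA of 15 pools, 5 per stage, was hybridised by the authors to 1-colour Agilent mouse arrays on 4 slides. The deposited scanner files hold background-subtracted Cy3 intensity per spot, extracted with Feature Extraction 10.7.1.1 per the file headers and 10.5.1.1 per the submitters' processing notes. The deposited table holds log2 values that the authors normalized and filtered, and over its 20855 gene probes they equalled log2 of that intensity plus 1 constant per array (largest SD of the difference 0.007424). It was used to choose members and as an alternative scale. No column of no known sample was present.

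Spots of a probe were averaged, leaving out non-uniform and population-outlier spots, and log2 values were centred on each array's median over valid probes, which were well above background on at least 80% of the arrays of every stage. Stages were compared with limma 3.58.1 in R 4.3.3, in 1 model over 15 arrays, with Benjamini-Hochberg adjustment over 17323 probes and a threshold of 0.01. Fits were tested on simulated data. A bound for a probe seen at 1 stage and on no array of another is the bright stage's mean over the higher, on each array, of the dim probe's own signal and the lowest signal well above background. The number of arrays limits the precision, gene spots were not saturated, and between 18366 and 24493 gene probes per array were well above background. Pools came from separate groups of mice, and shared replicate numbers name no common animal.

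Values on every array were given for members called from NC1 to C1 and for up to 3 called from C1 to C2 per role, plus genes seen at only 1 stage of a pair. Of the other lists, the 3 largest called changes in each direction were named, and further genes were chosen after their values were seen. The members and lists were chosen with earlier results of these data known. Alternatives (28) covered scaling, background correction (normexp, offset 50, on median signals because the files used here have no mean-signal column), filters, analysis of variance, blocks, probe choice and leaving out each array. The values of 1 member are not reported here. Promoters are from RefSeq.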

Additional observations from a re-analysis of the deposited data

Results flagged for a closer look

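Within the 5 arrays of a stage, 8 of 143 sets of member values had an array whose gap to its nearest neighbour was an unusually large share of the stage's range (Dixon's criterion). Chance alone gives such a gap in about 1 set of 20. At NC1, replicate 1 was the high array each time: Col5a1 stood at 0.13 against -0.62 for the next array (share 0.717), Col7a1 at -1.76 against -2.31 (0.715) and Fbln5 at -0.01 against -0.86 (0.741). At C1, Col11a1 was high in replicate 2, at 1.97 against 0.97 (0.738). C1 replicate 5 was high for Col5a1, at -0.40 against -0.78 (0.857), and low for Fbln2, at -2.71 against -2.05 (0.888). At C2, Fbln7 was low in replicate 3, at -2.60 against -2.27 (0.771), and Dcn was high in replicate 4, at -2.57 against -3.58 (0.796). Values are log2 levels over the array median.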

How the results depend on the processing

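Of the tested members and the counts of calls, none reversed under the alternatives run for it (28 in all, and 23 for Col12a1 and Loxl1); genes described outside the main test, markers and single genes of other lists were not run one by one. The 2 members called from NC1 to C1 became 0 with spike-in scaling, 1 with normexp correction, 1 with a one-factor analysis of variance, 1 with slide as a block and 6 when probes present at 1 stage or more were tested. They ranged from 1 to 3 on leaving out an array, with 3 without C2 replicate 1. From C1 to C2, the 12 higher calls became 7 with spike-in scaling and ranged from 11 to 13, and the 15 lower calls became 30 in the fit of probes present at 1 stage or more and 30 with no filter, both of which add genes that entered through the stage at which they were high, so that nothing is read from these counts, and ranged from 13 to 16. Against NC1, the 16 lower calls at C2 became 34 and 31 in those fits (14 to 17 on leaving out an array), the 12 higher ranged from 11 to 12, and the 28 called for any difference became 47 and 45 (26 to 29).

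Collagen maturation genes called lower at C2 went from 9 to 3 with the median of all gene probes and 3 with the authors' table (8 to 9 on leaving out an array; higher, 6 throughout). From NC1 to C1 their 4 calls became 2 with either of these, 1 with spike-in scaling and 2 with no filter (3 to 4). The receptor call from NC1 to C1 became 2 with quantile normalization and 2 with the mean of all probes (1 to 2; at C2, 7 to 8 higher and 7 to 10 lower). The growth factor and matricellular call became 2 with the median of all gene probes, spike-in scaling or the authors' table, and 0 with no filter or analysis of variance (0 to 1, with 0 without NC1 replicate 4; at C2, 6 to 7 higher and 12 lower). The cause of these moves was not tested, and scaling on all gene probes shifted the median of all valid probes from C1 to C2 to 0.33.

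On leaving out an array, members seen on all C1 and no C2 arrays numbered 3 to 5 (5 without C1 replicate 3 or C2 replicate 1), all NC1 and no C2 arrays 5 to 8 (8 without C2 replicate 1), all C2 and no C1 arrays 0 to 2 (2 without C1 replicate 4), all NC1 and no C1 arrays 0 to 1 (1 without C1 replicate 4), all C2 and no NC1 arrays 1, and all C1 and no NC1 arrays 0. With the replicate number as a block, 1 member was called from NC1 to C1, and 12 were higher and 14 lower from C1 to C2. Deviations of same-numbered arrays correlated at 0.06 to 0.35 between NC1 and C1 and at -0.17 to 0.21 between C1 and C2. Arrays with different numbers were not compared, so these values cannot decide whether the numbers paired the arrays. Signal near background limits what is known of the 24 members outside the main test.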
